A study of Macaca mulatta with 22 samples.

Results

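Oocytes arrested at metaphase II (MII), the stage ready for fertilization, were compared with 4-cell (4C) embryos of the rhesus macaque, to ask which stored maternal RNAs were lower, kept or higher before the embryo's own genome is broadly active. The comparison takes 3 MII and 3 4C libraries, chosen by their stage labels, out of 22 libraries of 9 stages. Each library is a whole single oocyte or embryo. The MII oocytes were taken after death from donors that had been superovulated, and so were the germinal vesicle (GV) and metaphase I (MI) oocytes. The 4C embryos, like the pronuclear (PN), 2-cell (2C), 8-cell (8C), morula (Mo) and blastocyst (Bl) embryos, came from intracytoplasmic sperm injection followed by culture. Stage and source of the cells therefore cannot be told apart between MII and 4C. No label gives a genotype, an age or which donor an oocyte or embryo came from. The p-values therefore measure a spread between single oocytes and embryos, not between donors. That spread was estimated within all 9 stages together, not within MII and 4C alone.

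A mature oocyte makes almost no new RNA, so its proteins until genome activation come from messages stored during growth. Many of these messages are silenced with short poly(A) tails, and some are re-adenylated and translated at maturation. Others lose their tail through the CCR4-NOT deadenylase and are then decapped and degraded, first by maternal factors and later with the help of newly made embryonic products. The libraries were made with a low-input cDNA kit that primes on poly(A), so a shorter or longer tail and a lower or higher amount of RNA cannot be told apart here. Values are RPKM, reads scaled to the length of the entry and the size of the library, and are therefore relative to all RNA sequenced; the total RNA of an oocyte or embryo was not measured.

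Oocyte products were present in both groups and markers of other cells were mostly near 0. In MII and 4C alike, DPPA3 (IMMRNTR2887), an oocyte-stored guardian of maternal DNA methylation, stood at 9216 RPKM or more in every library. DPPA3 was not limited to these stages, with means of 7061 RPKM at Mo and 1615 at Bl. Some other oocyte products, such as H1-8 and ZP3, were present at both stages but lower at 4C, as given below. Of 7 matched blood cell markers, 6 were listed at 0 in all 6 libraries and CD3E reached 0.116 RPKM in 4C-1. Of 10 sperm markers, 8 were at 0 in all 6 libraries, and the list summed to 0.212 to 3.86 RPKM at MII and 2.01 to 3.86 at 4C. Of 15 cumulus and granulosa markers, 7 were at 0 in all 6 libraries, with a summed level of 22.5 to 92.2 RPKM at MII and 6.29 to 28.3 at 4C. At MII most of that sum was TNFAIP6, a gene of the expanding cumulus matrix, at 38.5, 21.1 and 90.4 RPKM at MII and 1.45, 25.1 and 8.17 at 4C (limma adjusted p = 0.05004), while HAS2 was at 0.413, 0.165 and 0 at MII and 4.55, 1.37 and 13.1 at 4C (limma adjusted p = 0.0567). The part of attached cumulus cells in the results was not tested.

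Read depth, estimated from the steps between low values of short entries, was 16.7 to 21.4 M reads at MII and 9.41 to 14.1 M reads at 4C. These estimated ranges do not overlap, but no independent check of them was made. Between 8048 and 8566 entries reached 1 RPKM in an MII library and between 8098 and 8578 in a 4C library. Correlations of log2(RPKM + 1) across tested entries were 0.945 to 0.960 among MII oocytes, 0.920 to 0.939 among 4C embryos and 0.846 to 0.886 between the stages, as a description.

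RNA was lower at 4C for more entries than it was higher. Of 14312 tested entries (those with at least 1 RPKM in 2 or more libraries), 871 (6.09%) were lower and 445 (3.11%) were higher at 4C at a limma adjusted p under 0.05, together 1316 (9.2%). Among the called entries, 854 of the lower and 430 of the higher had MII and 4C libraries that did not overlap, against 19.1% lower and 11.8% higher without overlap among all tested entries. The median log2 change was -1.95 for the entries called lower and 1.99 for those called higher, and 109 fell and 66 rose by more than 3 on the log2 scale. Every change given is a difference of log2(RPKM + 1), which understates the change of low entries. Entries called lower had a median of 18.1 RPKM at MII and 2.79 at 4C. Those called higher had a median of 1.001 RPKM at MII and 10.5 at 4C.

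The balance of the calls depended on the scaling. With library values divided by median-of-ratios size factors, 490 entries were lower and 511 higher, so that the higher calls made up 51.1% of all calls against 33.8% on the deposited values. All 490 were among the 871, and 422 of the 445 higher calls were kept. The median log2 change over all tested entries was -0.02 as deposited and 0.0058 scaled. For the 3595 entries with a mean of at least 10 RPKM at MII it was -0.58 and -0.31. Counts also moved with single libraries: entries called lower numbered 448 without MII-1, 570 without MII-3, 448 without 4C-1 and 562 without 4C-3, and entries called higher numbered 255 without MII-1, 274 without MII-2, 291 without MII-3, 271 without 4C-1 and 265 without 4C-3.

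**Figure D1:**
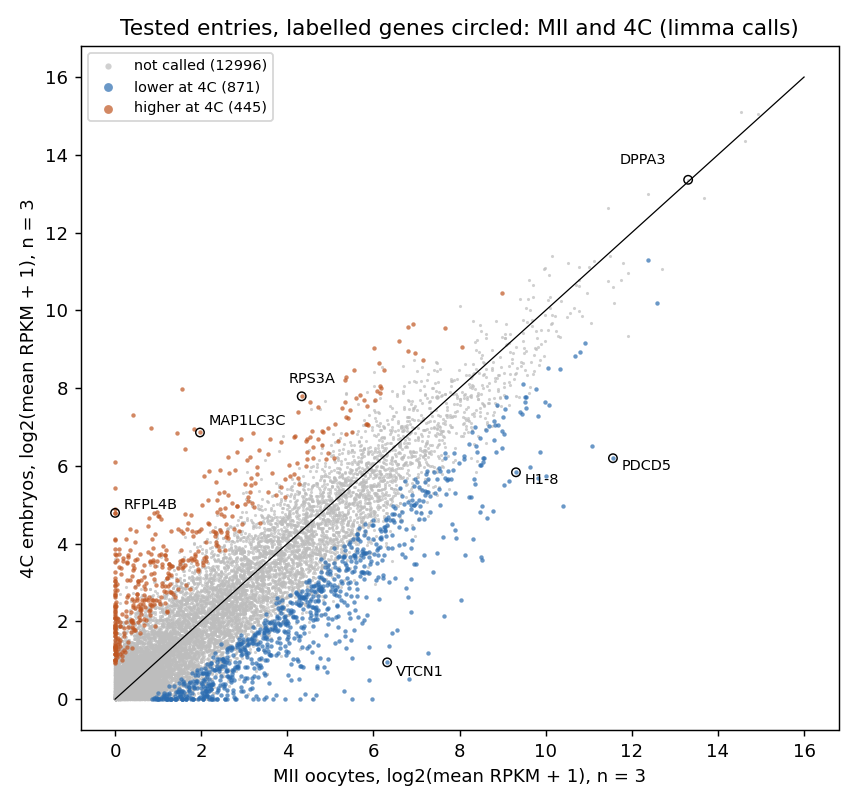
Mean level of each of the 14312 tested entries at MII (x axis) and 4C (y axis), both as log2(mean RPKM + 1) of 3 libraries, with the diagonal marking equal levels. Blue points are the 871 entries called lower at 4C, orange points the 445 called higher, and grey points were not called. Circled genes include PDCD5 far below the diagonal, RFPL4B at 0 on the MII axis, and DPPA3 on the diagonal.

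The largest decreases included genes of varied function. VTCN1, an immune checkpoint ligand of the B7 family (chromosome 1, 120117050 to 120188172), stood at 58.3, 92.5 and 85.7 RPKM in the MII oocytes and at 0.32, 0.461 and 2.00 in the 4C embryos. Its log2 change was -5.45 ± 0.48 (SE; limma adjusted p = 2.26e-06). VTCN1 did not fall steadily, since its mean was 2.78 RPKM at PN, 78.2 at 2C and 16.2 at 8C. PDCD5, a small protein linked to apoptosis (chromosome 19, 39098358 to 39104793), was among the most abundant entries that fell, from 3317, 843 and 4905 RPKM to 35.7, 87.1 and 94.1 (log2 change -5.15 ± 0.60; limma adjusted p = 2.74e-05). Most of the PDCD5 difference was already present at PN, where its mean was 100.2 RPKM. ACTA2, the smooth muscle actin (chromosome 9, 88514985 to 88574330), went from 46.7, 35.2 and 34.5 RPKM to 0, 0 and 0.468 (log2 change -5.12 ± 0.37; limma adjusted p = 1.16e-07). For all 3 genes every MII oocyte lay above every 4C embryo, a condition for their choice.

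The other large decreases were likewise without overlap between the stages, which the choice of these genes required. PET100, a cytochrome c oxidase assembly factor, fell from 185, 102 and 308 RPKM to 4.65, 2.52 and 3.08. HMGB3, a chromatin-binding HMG-box protein, went from 426, 408 and 270 RPKM to 5.95, 6.11 and 20.6. MRPL30, a mitochondrial ribosomal protein, went from 66.8, 92.9 and 83.9 RPKM to 1.92, 0.503 and 2.35. Limma adjusted p was 6.8e-06 for PET100, 0.00134 for HMGB3 and 0.00465 for MRPL30. C15H9ORF11 fell from 102, 49.8 and 104 RPKM to 1.38, 4.41 and 1.05, and IFI27, an interferon-induced gene, from 67.9, 42.7 and 23.3 RPKM to 0, 3.24 and 0 (limma adjusted p of 2.2e-05 and 1.01e-04). FABP9, a lipid-binding protein of the male germ line, stood at 27.8, 114 and 66.2 RPKM at MII and at 0, 0 and 15.0 at 4C (limma adjusted p = 0.00372), so 1 embryo kept part of the MII level.

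The 12 largest increases went mostly from near 0 at MII to 10 RPKM or more at 4C. RFPL4B, a RING-finger family gene of genome activation (chromosome 4, 151588555 to 151589349), was listed at 0 in all 3 MII oocytes and at 40.5, 11.4 and 28.1 RPKM at 4C (limma adjusted p = 1.75e-04). Its mean was 0.115 RPKM at PN and 0.892 at 2C, and 1237 at 8C. MAP1LC3C, an LC3 protein of autophagosomes (chromosome 1, 215039648 to 215042480), was at 0, 6.23 and 2.53 RPKM at MII and at 175, 52.9 and 118 at 4C (log2 change 5.14 ± 0.93; limma adjusted p = 0.00159). MAP1LC3C differed from RFPL4B in its course, with a mean of 82.9 RPKM already at PN and 18.6 at 8C. SYCP3, a structural protein of the meiotic synaptonemal complex, was at 0.792, 0 and 0 RPKM at MII and 15.1, 15.9 and 27.7 at 4C (log2 change 4.03 ± 0.72; limma adjusted p = 0.00142). SYCP3 was higher still at PN, with a mean of 65.4 RPKM, and stood at 0.024 at GV and 32.4 at MI.

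The rest of the largest increases also started from under 2 RPKM at MII, apart from ribosomal protein genes described later. ZNF138, a zinc finger protein, stood at 0.032, 0 and 0 RPKM at MII and at 10.4, 7.77 and 17.9 at 4C. ZNF57, another zinc finger protein, was at 0.593, 0 and 0 RPKM at MII and at 22.1, 4.19 and 22.7 at 4C. DDX31, an RNA helicase, was at 0.404, 0 and 0.019 RPKM at MII and at 14.4, 4.59 and 13.4 at 4C. Limma adjusted p was 7.9e-05 for ZNF138, 0.00338 for ZNF57 and 8.45e-04 for DDX31. Another DDX31 entry was not called, and the sum over both went from a mean of 2.87 RPKM to 15.6. Zinc finger symbols as a family, a group chosen after these values were seen, were called lower for 14 and higher for 15 of 454 tested members (3.08% and 3.3%). Among all tested entries the shares were 6.09% lower and 3.11% higher, so the family's share of higher calls was near that of all entries. CPS1, the first enzyme of the urea cycle, rose from 0.023, 0.336 and 0.341 RPKM to 10.1, 15.9 and 9.82. ATP6V0D1, a subunit of the vacuolar proton pump, rose from 0, 1.69 and 0.424 RPKM to 36.5, 10.3 and 15.8, and DNAJC18, a co-chaperone, from 1.40, 0 and 1.91 to 41.1, 12.8 and 17.7. Limma adjusted p was 9.82e-05 for CPS1, 9.61e-04 for ATP6V0D1 and 0.00272 for DNAJC18.

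**Figure D2:**
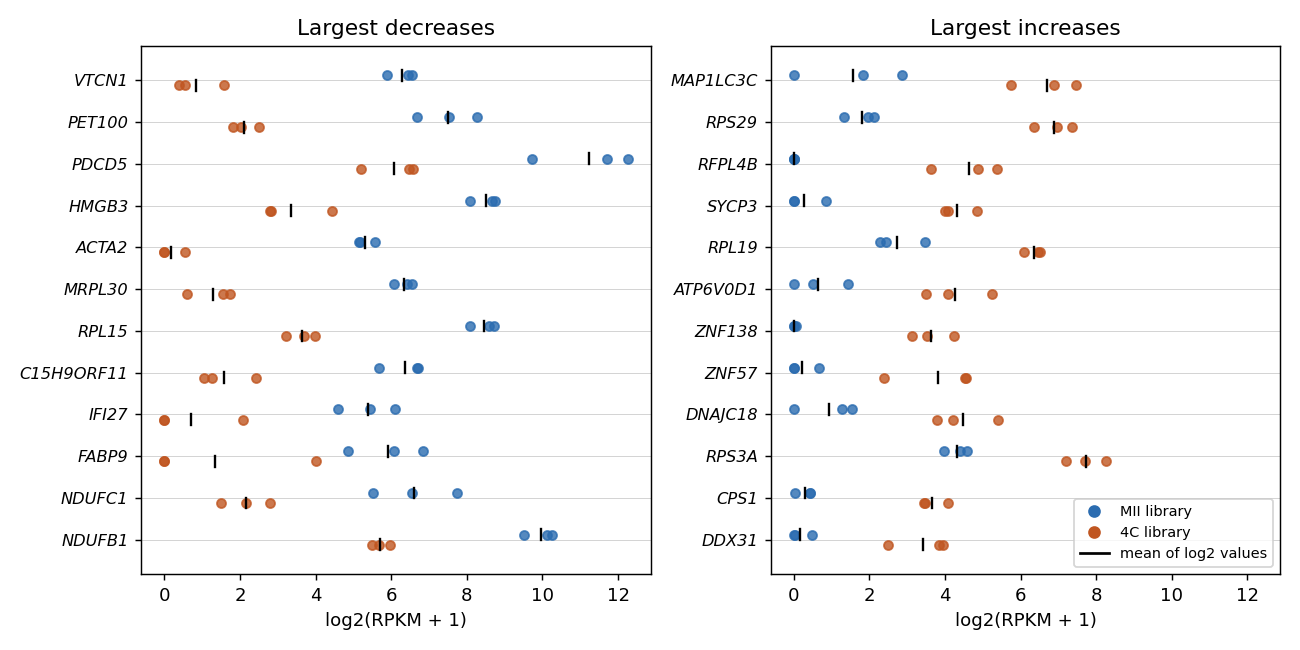
Levels in each library, as log2(RPKM + 1), of the 12 genes with the largest called decreases (left) and the 12 with the largest called increases (right), with genes ordered by size of change. Blue points are MII libraries, orange points 4C libraries and black bars the means of the log2 values. MII and 4C points do not overlap for any of the 24 genes, which the naming rule required.

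Of all tested entries, 9.2% were called in either direction. None of 14 genes of RNA decay, the machinery that clears maternal messages, followed individually was called in the main fit. BTG4, the adaptor that brings CCR4-NOT to maternal messages, was the most abundant of these, at 3436, 3773 and 4379 RPKM at MII and 2002, 1917 and 2046 at 4C. Although the libraries did not overlap, the change did not pass the test (log2 change -0.95 ± 0.50; limma adjusted p = 0.293). CNOT1, the CCR4-NOT scaffold, was nearest to the threshold, at 0.632, 0.778 and 3.80 RPKM at MII and 8.999, 8.64 and 10.6 at 4C (log2 change 2.11 ± 0.67; limma adjusted p = 0.0572). With a pseudocount of 0.1 RPKM, CNOT1 did pass the threshold (limma adjusted p = 0.0437). The deadenylase subunits CNOT6L, CNOT7 and CNOT8 had mean log2 changes of 0.25, -0.47 and -1.12, with limma adjusted p between 0.147 and 0.852. CNOT8 libraries did not overlap, at 67.6, 61.9 and 39.2 RPKM at MII and 24.8, 20.2 and 29.8 at 4C.

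The remaining decay genes followed singly covered several steps. DCP2, the decapping enzyme, stood at 74.8, 66.6 and 63.3 RPKM at MII and 90.9, 76.1 and 94.2 at 4C, while its activator DCP1A was at 22.5, 20.1 and 14.4 and at 16.2, 16.6 and 17.4. XRN1, the exonuclease acting after decapping, ranged from 7.04 to 13.8 RPKM at MII and from 5.90 to 8.46 at 4C. YTHDF2, a reader of m6A that recruits deadenylases, was at 10.8, 9.60 and 3.71 RPKM at MII and 2.35, 5.50 and 2.05 at 4C (limma adjusted p = 0.216), before a mean of 87.3 RPKM at 8C. PARN, a poly(A) exonuclease, had a log2 change of -0.71 ± 0.59. The terminal uridyltransferases TUT4 and TUT7, which tag deadenylated messages, had means under 1.5 RPKM at both stages, as did PABPN1L, a nuclear-type poly(A)-binding protein of oocytes. ZFP36L2, which binds AU-rich elements, stood at 0.524, 0 and 0.065 RPKM at MII and 0.547, 2.86 and 1.91 at 4C (limma adjusted p = 0.236). These intervals are wide: the 95% interval of the BTG4 log2 change ran from -2.01 to 0.11, so a p above the threshold does not show an equal level. The intervals use the spread within all 9 stages, and BTG4 stood at 15.3, 3.37 and 27.3 RPKM in the morulae.

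Across the wider list of decay genes, 4 of 49 tested members (8.16%) were called lower and 0 higher, against 6.09% and 3.11% of all tested entries, with a median log2 change of -0.13. With scaled values 2 were lower and 0 higher. UPF3B, a nonsense-mediated decay factor, fell from 29.9, 30.4 and 13.2 RPKM to 3.79, 5.66 and 1.59 (log2 change -2.46 ± 0.52; limma adjusted p = 0.00527). EXOSC9, a core subunit of the RNA exosome, fell from 236, 246 and 221 RPKM to 61.5, 86.7 and 90.3 (log2 change -1.57 ± 0.35; limma adjusted p = 0.00782), with an adjusted p of 0.0502 without 4C-1. EDC4, the decapping scaffold, and BTG2, a relative of BTG4, were the others, and EDC4 lost its call without any 1 of the 6 libraries (adjusted p 0.0554 to 0.166). The summed level of the list was 4831 to 5753 RPKM at MII and 2931 to 3075 at 4C, most of it BTG4.

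**Figure D3:**
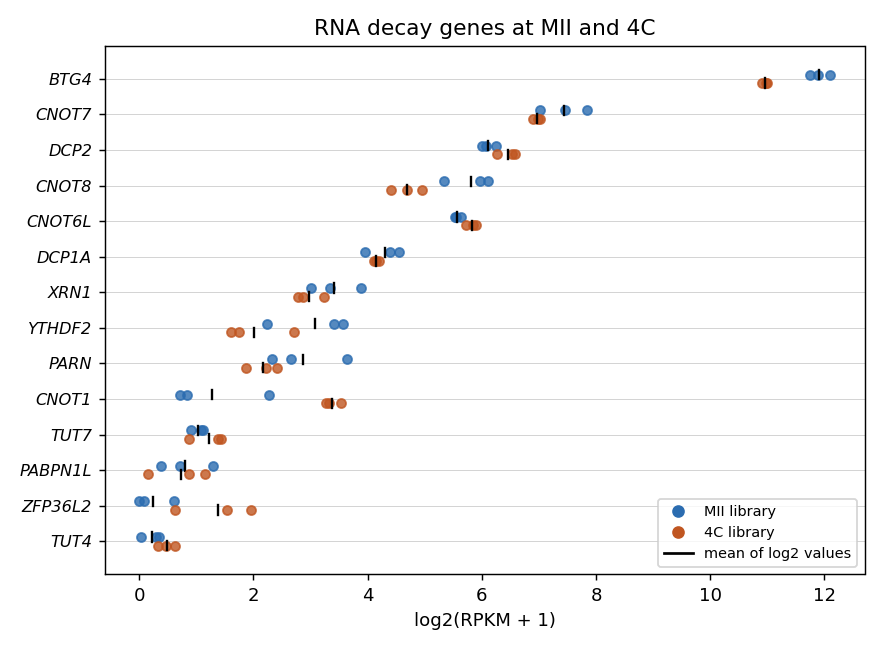
Levels of 14 RNA decay genes in each MII (blue) and 4C (orange) library, as log2(RPKM + 1), with genes ordered by mean RPKM at MII and black bars marking the means of the log2 values. BTG4 sits far to the right of the other genes at both stages, and none of the 14 was called by limma in the main fit.

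Factors that store or silence messages were called in both directions, for 2 lower and 2 higher of 34 tested members (5.88% each way). DDX6, the helicase of repressed RNA granules, rose from 1.28, 0.72 and 0.884 RPKM to 15.2, 7.62 and 9.50 (log2 change 2.54 ± 0.50; limma adjusted p = 0.00333). The DDX6 mean was 4.67 RPKM at GV and 8.84 at MI, against 10.8 at 4C. With scaled values 0 members were called lower and 3 higher. IGF2BP3, an RNA-binding protein that protects bound messages, fell from 263, 238 and 189 RPKM to 51.7, 69.1 and 54.1 (log2 change -1.96 ± 0.54; limma adjusted p = 0.0271). IGF2BP3 was not called without MII-1, MII-2, MII-3, 4C-1 or 4C-3 (0.0533 to 0.1). ELAVL1, which binds AU-rich elements, and YTHDF3, an m6A reader, were the other calls, lower and higher in turn. ELAVL1 lost its call without MII-1, MII-2, MII-3, 4C-1 or 4C-3 (limma adjusted p 0.0613 to 0.211), and YTHDF3 without any 1 of the 6 libraries (0.0655 to 0.161).

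Among genes of the subcortical maternal complex and the oocyte NLRP family, which serve the early cleavage divisions, 1 of 15 was called lower and 1 higher (6.67% each), and 1 and 2 with scaled values. NLRP4 (chromosome 19, 61858139 to 61900533) fell from 2135, 1667 and 1959 RPKM to 511, 627 and 574 (log2 change -1.75 ± 0.36; limma adjusted p = 0.00458). NLRP8, its neighbour on the same chromosome (61968756 to 61999023), rose from 24.2, 27.0 and 24.0 RPKM to 185, 80.8 and 278 (log2 change 2.64 ± 0.50; limma adjusted p = 0.00227). The 2 genes thus went in opposite directions, each with libraries that did not overlap. The core members OOEP, KHDC3L, NLRP5, TLE6 and PADI6 were not called. OOEP was at 417, 298 and 930 RPKM at MII and 800, 212 and 669 at 4C, so that its ranges overlapped, and TLE6 was at 10.4, 10.7 and 22.5 at MII and 1.03, 2.84 and 6.35 at 4C (limma adjusted p = 0.0537).

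Secreted oocyte products were split. The zona pellucida genes ZP3 and ZP4, which encode the oocyte's coat, were lower, and the growth factors BMP15 and GDF9, which act on cumulus cells, were higher, so 2 of 8 tested members were called each way (25%). With scaled values 0 were lower and 2 higher. ZP3 fell from 564, 512 and 1619 RPKM to 134, 220 and 112 (log2 change -2.37 ± 0.68; limma adjusted p = 0.0346), and ZP4 from 234, 255 and 622 to 58.1, 76.0 and 68.8 (log2 change -2.29 ± 0.63; limma adjusted p = 0.0266). Both had higher means earlier, with MI means of 3133 and 1345 RPKM. BMP15 rose from 45.1, 31.4 and 51.9 RPKM to 254, 112 and 150 (log2 change 1.93 ± 0.48; limma adjusted p = 0.0149), and GDF9 (IMMRNTR2410) from 48.5, 56.8 and 89.6 to 281, 156 and 184 (log2 change 1.66 ± 0.43; limma adjusted p = 0.0183). Their 4C means of 172 and 207 RPKM lay between the GV means of 75.4 and 134 and the MI means of 246 and 312. Calls ended for ZP3 without MII-1, MII-3, 4C-1 or 4C-3 (adjusted p 0.0637 to 0.167), for ZP4 without MII-3, 4C-1, 4C-2 or 4C-3 (0.0510 to 0.131), for BMP15 without MII-2 or 4C-1 (0.0667 and 0.0925) and for GDF9 without MII-1, MII-2 or 4C-1 (0.0624 to 0.101).

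Of oocyte and germline factors, 3 of 23 tested members were lower (13%) and 0 higher. H1-8, the oocyte linker histone, fell from 876, 551 and 474 RPKM to 42.8, 78.7 and 46.7 (log2 change -3.48 ± 0.46; limma adjusted p = 1.02e-04). The H1-8 mean passed through 145 RPKM at PN and 153 at 2C and ended under 1 RPKM in blastocysts. DPPA5 fell from 370, 286 and 410 RPKM to 113, 105 and 93.4 (log2 change -1.75 ± 0.41; limma adjusted p = 0.0106). TDRD7, a germ granule protein, also fell, from 44.2, 25.6 and 49.4 RPKM to 5.43, 13.3 and 12.4 (limma adjusted p = 0.0177), but not without MII-1, MII-3 or 4C-1 (0.0741 to 0.109).

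In the meiosis and maturation list, 3 of 48 tested members were lower (6.25%) and 1 higher (2.08%), and with scaled values 0 were lower and 1 higher. ESPL1, the separase that opens cohesin, fell from 6.01, 4.47 and 4.10 RPKM to 0.489, 1.43 and 0.68 (log2 change -1.67 ± 0.40; limma adjusted p = 0.0125), though not without MII-1 or 4C-1 (0.0613 and 0.0646). CDCA8, a subunit of the chromosomal passenger complex, and SMC1B, the meiotic cohesin subunit, were also called lower. CDCA8 lost its call without MII-1, MII-2, MII-3, 4C-2 or 4C-3 (limma adjusted p 0.0694 to 0.116), and SMC1B without any 1 of the 6 libraries (0.050 to 0.165). The member called higher was SYCP3, given above.

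In the list of embryonic cell cycle and DNA replication, 5 of 48 were lower (10.4%) and 3 higher (6.25%), and 2 and 3 with scaled values. Members of one machine differed in direction. MCM2, a subunit of the replicative helicase, fell from 80.4, 88.9 and 54.6 RPKM to 10.4, 14.1 and 11.5 (log2 change -2.52 ± 0.58; limma adjusted p = 0.00943). MCM3, another subunit of it, rose from 17.5, 9.87 and 9.86 RPKM to 43.6, 25.2 and 41.4 (log2 change 1.5 ± 0.39; limma adjusted p = 0.0211), though not without MII-2, MII-3, 4C-1 or 4C-3 (0.0790 to 0.0957). LIG1 (IMMRNTR6495), the ligase that joins lagging-strand fragments, fell from 79.3, 50.2 and 84.5 RPKM to 12.4, 19.3 and 25.7 (limma adjusted p = 0.0100), with 0.0653 without 4C-1. The other calls were PCNA, FEN1 and GINS3, lower, and ORC2 and GINS2, higher. FEN1, the flap endonuclease, lost its call without any 1 of the 6 libraries (limma adjusted p 0.0621 to 0.15), ORC2, of the origin recognition complex, without MII-1, MII-2, MII-3, 4C-1 or 4C-3 (0.0546 to 0.138), and GINS2, of the replicative helicase, without MII-1, MII-2, 4C-1 or 4C-3 (0.109 to 0.180).

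On the deposited values, mitochondrial respiration had the largest share of lower calls among the lists with more than 8 tested members. Of 55 tested nuclear genes of oxidative phosphorylation, 8 were lower (14.5%) and 2 higher (3.64%), with a median log2 change of -0.55. With scaled values 7 were lower and 2 higher, and the median was -0.29. UQCRB, a subunit of complex III, fell from 17.5, 13.8 and 22.3 RPKM to 0.319, 1.22 and 1.34 (log2 change -3.29 ± 0.40; limma adjusted p = 4.08e-05). In complex I, NDUFC1 went from 92.4, 45.0 and 214 RPKM to 3.43, 1.82 and 6.0 (log2 change -4.45 ± 0.66; limma adjusted p = 2.39e-04). NDUFB1, also of complex I, stood at 1118, 735 and 1225 RPKM at MII and 50.03, 61.8 and 44.3 at 4C (log2 change -4.25 ± 1.17; limma adjusted p = 0.0272). In spite of its size, the NDUFB1 change was not called without any 1 of the 6 libraries (adjusted p 0.0547 to 0.0878). Its limma adjusted p was 0.00962 in a fit of the 6 libraries alone. NDUFB1 stood at 186, 0.755 and 253 RPKM in the morulae, whose spread enters the main fit. Without Mo-2, a fit chosen after seeing the data, its limma adjusted p was 3.92e-06. Of complex IV, COX7A2 (IMMRNTR4994) fell from 7.08, 6.16 and 11.7 RPKM to 0.583, 0.63 and 0.28 (limma adjusted p = 0.00419).

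The members called higher both encode the catalytic head of the ATP synthase. ATP5F1A, its alpha subunit, rose from 63.5, 65.5 and 71.3 RPKM to 236, 192 and 295 (log2 change 1.81 ± 0.44; limma adjusted p = 0.0133), but not without MII-1 or 4C-3 (0.0531 and 0.0627). ATP5F1B, its beta subunit, rose from 4.13, 1.94 and 3.45 RPKM to 7.58, 12.4 and 13.9 (limma adjusted p = 0.0339), and lost its call without MII-1, MII-2, MII-3, 4C-2 or 4C-3 (0.0606 to 0.140). The summed level of the whole list was 3715 to 6526 RPKM at MII, 2207 to 4040 at PN, 1560 to 2051 at 2C and 1956 to 2299 at 4C.

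Mitochondrial ribosomal proteins were called lower for 3 of 58 tested members (5.17%) and higher for 1 (1.72%), or 3 and 0 with scaled values, although their median log2 change was -0.66. Beside MRPL30, MRPL16 fell from 31.9, 7.62 and 47.6 RPKM to 0.062, 0.178 and 1.6 (log2 change -4.02 ± 0.65; limma adjusted p = 5.99e-04). Another MRPL16 entry had means of 55.5 RPKM at MII and 12.4 at 4C (limma adjusted p = 0.0151), so the sum over both went from a mean of 84.6 RPKM to 13.04. MRPL22 was the other member called lower, and lost its call without MII-1, MII-3, 4C-1, 4C-2 or 4C-3 (limma adjusted p 0.0722 to 0.132). MRPS15, the member called higher, overlapped between the stages, at 1.35, 0 and 0 RPKM at MII and 5.57, 1.09 and 6.09 at 4C (limma adjusted p = 0.0488). The MRPS15 call ended without MII-2, MII-3, 4C-1 or 4C-3 (0.163 to 0.195).

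Cytosolic ribosomal protein genes were called lower for 10 of 77 tested members (13%) and higher for 4 (5.19%), or 7 and 6 with scaled values, while the summed level of the list overlapped between the stages, at 23540 to 28720 RPKM at MII and 19920 to 28820 at 4C. RPL23, of the large subunit, fell from 954, 969 and 1107 RPKM to 148, 249 and 203 (log2 change -2.36 ± 0.33; limma adjusted p = 1.67e-04). RPS3A, of the small subunit, rose from 14.8, 22.8 and 19.9 RPKM to 146, 307 and 208 (log2 change 3.41 ± 0.37; limma adjusted p = 1.32e-05). The RPS3A entry spans only 402 bases. RPS18 (IMMRNTR2481), also of the small subunit, went from 50.3, 67.2 and 57.0 RPKM to 0.48, 0.461 and 0.308 (limma adjusted p = 4.37e-08). This RPS18 entry had means of 22.5 RPKM at GV, 0.215 at MI, 0.543 at PN and 1.365 at Bl. Another RPS18 entry had means of 6.36 RPKM at MII and 0.435 at 4C and was not called (limma adjusted p = 0.166). Ribosomal protein genes have many near-identical copies in primate genomes, so reads may be split between entries and single values are uncertain.

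Several ribosomal symbols have more than 1 entry, and the entries disagreed. The RPL15 entry that fell from 272, 384 and 419 RPKM to 14.7, 11.9 and 8.32 spans 771 bases on chromosome 11 (116081962 to 116082732). Another RPL15 entry had means of 186 RPKM at MII and 360 at 4C (limma adjusted p = 0.307), and the sum over both went from a mean of 545 RPKM to 371. The RPS29 entry that rose from 1.51, 3.32 and 2.87 RPKM to 123, 163 and 80.7 spans 194 bases, and its other entry had means of 169 and 128, so the sum over both was 172 RPKM at MII and 250 at 4C. RPL19 rose in one entry, from 4.38, 10.2 and 3.87 RPKM to 89.5, 87.4 and 67.2, and fell in the other entries, with a sum of 30.8 RPKM at MII and 85.5 at 4C. The sums kept the direction of the named entry for all 3 genes, and those of RPS29 overlapped between the stages, at 142 to 204 RPKM at MII and 184 to 318 at 4C.

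Ribosome biogenesis had 8 of 74 tested members lower (10.8%) and 1 higher (1.35%), but 3 each way with scaled values. MPHOSPH10, of the small-subunit processome, fell from 38.2, 39.7 and 32.3 RPKM to 4.52, 3.65 and 6.30 (log2 change -2.72 ± 0.39; limma adjusted p = 1.67e-04). Its mean then stood at 20.1 RPKM at 8C. EBNA1BP2, a nucleolar assembly factor, followed the same order, from 43.2, 26.1 and 29.0 RPKM at MII to 4.47, 4.32 and 7.83 at 4C (limma adjusted p = 0.0049) and a mean of 59.3 at 8C. MRTO4 was the member called higher, from 1.97, 2.01 and 2.00 RPKM to 11.2, 4.07 and 13.2 (limma adjusted p = 0.0214), and its call ended without MII-1, MII-2, MII-3, 4C-1 or 4C-3 (0.0580 to 0.109).

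Spliceosome genes were lower for 6 of 61 tested members (9.84%) and higher for 0, and 3 and 0 with scaled values. SNRPE, a core Sm protein, fell from 254, 80.3 and 255 RPKM to 9.10, 25.6 and 16.5 (log2 change -3.38 ± 0.55; limma adjusted p = 6.6e-04). SF3A3, of the U2 particle, fell from 298, 242 and 280 RPKM to 91.1, 60.7 and 75.1 (log2 change -1.85 ± 0.32; limma adjusted p = 0.00116). Both changes remained called without any 1 library. In the proteasome, 2 of 38 were lower (5.26%) and 0 higher, with a median log2 change of -0.02. PSMA7, an alpha-ring subunit, fell from 511, 518 and 485 RPKM to 97.1, 172 and 85.3 (limma adjusted p = 0.00254), and SEM1, of the lid, from 57.3, 23.1 and 58.1 to 2.89, 4.82 and 6.14 (limma adjusted p = 0.0139). The SEM1 call ended without MII-1, MII-3 or 4C-1 (0.0581 to 0.0706).

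Translation factors were lower for 3 (6.25%) and higher for 2 (4.17%) of 48 tested members, but 1 and 2 with scaled values. EIF4G3, an initiation scaffold (IMMRNTR1690), fell from 7.48, 5.01 and 7.44 RPKM to 0.094, 0.373 and 0.023 (log2 change -2.71 ± 0.43; limma adjusted p = 4.62e-04). The 3 other EIF4G3 entries were not called, and the sum over all 4 went from a mean of 12.9 RPKM to 2.49. EEF1A1, which delivers aminoacyl-tRNA to the ribosome, rose from 194, 172 and 243 RPKM to 1011, 355 and 856 (log2 change 1.75 ± 0.39; limma adjusted p = 0.00768), with an adjusted p of 0.0589 without 4C-1. GSPT1, a translation termination factor, rose from 28.8, 28.6 and 42.5 RPKM to 149, 78.9 and 176 (limma adjusted p = 0.0093), with 0.0527 without 4C-3. For both, every 4C embryo lay above every MII oocyte and the MI means of 538 and 110 RPKM lay within the 4C range.

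**Figure D4:**
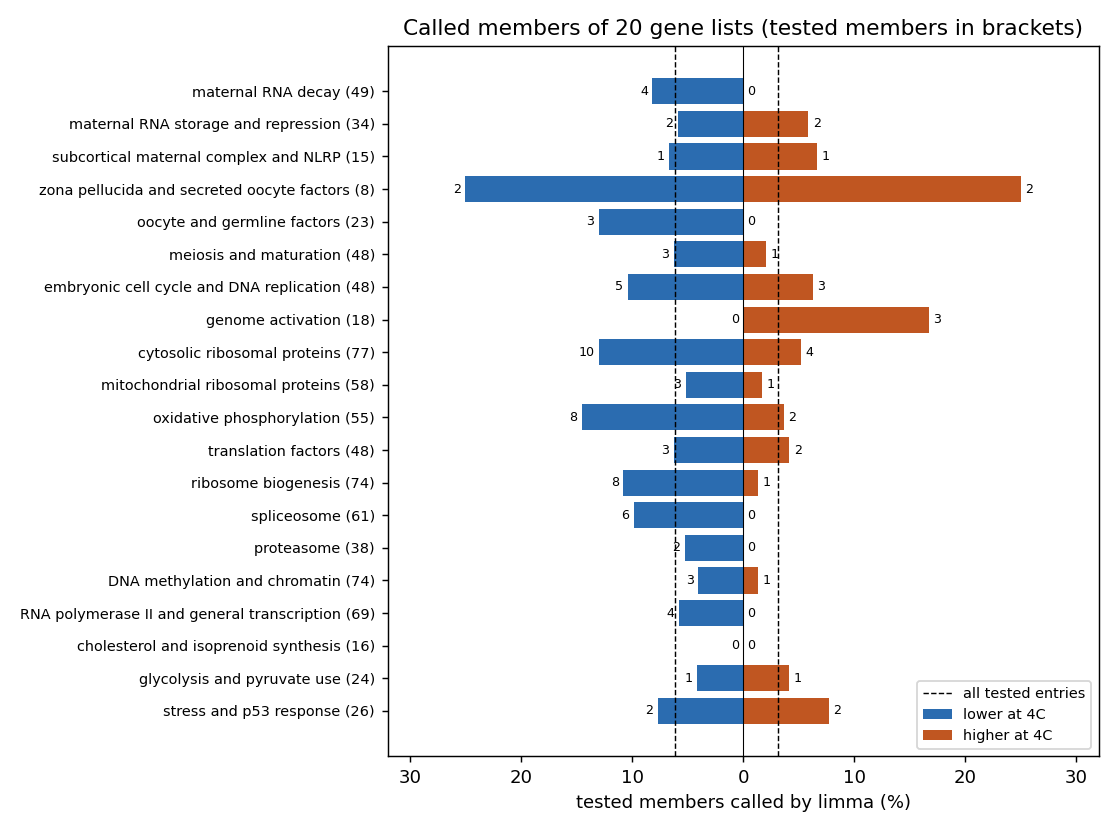
Share of the tested members of 20 gene lists called lower (blue, to the left) or higher (orange, to the right) at 4C by limma, in percent, with the number of called members at each bar. Dashed lines mark the shares among all tested entries, 6.09% lower and 3.11% higher. On these deposited values, only genome activation, with 3 of 18, has higher and no lower calls.

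Of 74 tested DNA methylation and chromatin genes, 3 were called lower (4.05%) and 1 higher (1.35%), against 6.09% and 3.11% of all tested entries. With scaled values 1 was lower and 0 higher. DNMT1, the maintenance DNA methyltransferase, fell from 1078, 1188 and 905 RPKM to 315, 435 and 338 (log2 change -1.54 ± 0.38; limma adjusted p = 0.0136). DNMT1 was not called without MII-1, MII-2, 4C-1 or 4C-3 (0.0521 to 0.0660). DNMT3A, a de novo methyltransferase, rose from 4.72, 4.22 and 3.29 RPKM to 66.2, 29.5 and 44.8 (log2 change 3.17 ± 0.97; limma adjusted p = 0.0466), but not without any 1 of the 6 libraries (0.0658 to 0.165). The DNMT3A mean was 27.3 RPKM at GV, below its 4C libraries, and 50.8 at MI, within their range. KMT2C, a histone H3 methyltransferase of enhancers, fell from 107, 129 and 110 RPKM to 25.6, 33.8 and 33.1 (limma adjusted p = 0.0112), with 0.0560 without 4C-1, and ASF1B, a histone chaperone, fell from 110, 138 and 83.1 to 24.1, 36.6 and 36.9 (limma adjusted p = 0.0277). The ASF1B call ended without MII-1, MII-2, 4C-1 or 4C-3 (0.0592 to 0.123).

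Of RNA polymerase II and general transcription factor genes, 4 of 69 were lower (5.8%) and 0 higher, and 1 and 0 with scaled values. GTF2B, the general factor TFIIB, fell from 833, 598 and 1207 RPKM to 272, 221 and 257 (log2 change -1.76 ± 0.38; limma adjusted p = 0.00627). GTF2H1, POLR2B and SSRP1 were the other calls. GTF2H1 lost its call without MII-2 (limma adjusted p = 0.0627), and POLR2B without MII-1, MII-2, MII-3, 4C-1 or 4C-3 (0.0517 to 0.127). In the stress list, with 2 of 26 called each way (7.69%), or 1 lower and 2 higher with scaled values, IER2, an immediate early gene, fell from 9.07, 3.42 and 4.51 RPKM to 0, 0.306 and 0.238 (limma adjusted p = 0.0021). PRDX2, a peroxide-reducing enzyme, rose from 10.1, 9.77 and 31.7 RPKM to 139, 42.9 and 141 (limma adjusted p = 0.00347), and HSPA8, the constitutive HSP70 chaperone, from 52.9, 36.0 and 53.5 to 211, 175 and 254 (limma adjusted p = 0.00397).

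In energy metabolism outside the respiratory chain, 1 of 24 glycolysis and pyruvate genes was called each way (4.17%), and with scaled values 0 were lower and 1 higher. PDHB, of pyruvate dehydrogenase, fell from 6.15, 11 and 8.00 RPKM to 0.278, 3.34 and 2.05 (limma adjusted p = 0.0202), and PDK1, the kinase that inhibits that enzyme, rose from 6.10, 13 and 5.91 to 38.3, 15.1 and 35.5 (limma adjusted p = 0.0282). PDHB lost its call without MII-2, MII-3 or 4C-1 (0.0566 to 0.133), and PDK1 without MII-1, MII-3, 4C-1 or 4C-3 (0.110 to 0.130). None of 16 cholesterol and isoprenoid synthesis genes was called by limma, with 3 at an unadjusted p under 0.05. Of all 14312 tested entries, 9.2% were called and 3117 had an unadjusted limma p under 0.05, so neither count sets this list apart.

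Genes that mark genome activation in primates were mostly near 0 at both stages. Of 18 tested members, 3 were called higher (16.7%) and 0 lower, and 2 and 0 with scaled values. Beside RFPL4B, LEUTX (IMMRNTR1244), a paired-like homeobox gene of cleavage embryos, was listed at 0 in all 3 MII oocytes and at 5.52, 9.04 and 7.24 RPKM at 4C (limma adjusted p = 0.0190), before a mean of 1167 RPKM at 8C. The LEUTX call ended without MII-1, MII-2, MII-3, 4C-2 or 4C-3 (0.0534 to 0.0610). NANOG, a pluripotency factor, was at 1.19, 0 and 0.415 RPKM at MII and 9.51, 1.63 and 3.54 at 4C (limma adjusted p = 0.0468), and its call ended without MII-1, MII-2, MII-3, 4C-1 or 4C-3 (0.0597 to 0.253). The NANOG mean was 2.6 RPKM at GV and 11.1 at MI, on either side of its 4C mean of 4.89. DUXA, a homeobox gene placed upstream of activation, was listed at 0 at MII and at 2.74, 1.80 and 2.76 RPKM at 4C (limma adjusted p = 0.116), against a mean of 3722 at 8C. The summed level of the list was 41.5 to 59.3 RPKM at MII, 53.8 to 86.0 at PN, 138 to 163 at 2C and 70.5 to 107 at 4C.

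Some calls of single genes also depended on the fit. With scaled values the calls ended for EDC4, IGF2BP3, ELAVL1, ZP3, ZP4, ESPL1, CDCA8, SMC1B, FEN1, NANOG, MRPS15, DNMT1, DNMT3A, ASF1B, GTF2H1, POLR2B and PDHB (limma adjusted p from 0.0506 for ZP4 to 0.141 for DNMT1). With a pseudocount of 0.1 RPKM they ended for NDUFB1, EDC4, IGF2BP3, ELAVL1, YTHDF3, ZP3, ZP4, BMP15, GDF9, TDRD7, CDCA8, SMC1B, LIG1, FEN1, KMT2C, ASF1B, DNMT3A and PDK1 (limma adjusted p 0.0522 to 0.204). Without the filter on low values they ended for NDUFB1, IGF2BP3, ELAVL1, YTHDF3, ZP3, ZP4, CDCA8, SMC1B, FEN1, GINS2, NANOG, MRPL22, MRPS15 and DNMT3A (0.0515 to 0.0999). In a fit of the 6 libraries alone they ended for FABP9, ELAVL1, ZP3, TDRD7, MCM3, GINS2, NANOG, MRPL22, MRPS15, EEF1A1, MRTO4, PDHB, PDK1 and PRDX2 (0.0546 to 0.155).

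The time course between MII and 4C was read from the PN and 2C libraries, without a test since the stages share libraries with the comparison. For the 871 entries called lower, the median RPKM was 18.1 at MII, 5.93 at PN, 5.23 at 2C and 2.79 at 4C. At PN the mean was at or below the 4C mean for 152 of them, and at or above the MII mean for 14. After 4C, the mean at 8C was at or above the 4C mean for 468 and at or above the MII mean for 77. The entries were chosen in part for low 4C values, which favours a higher mean at 8C. Over all tested entries the median was 1.74 RPKM at 4C and 2.46 at 8C. For the 445 called higher, the median RPKM was 3.16 at GV, 5.74 at MI, 1.001 at MII, 9.54 at PN, 4.93 at 2C, 10.5 at 4C and 4.15 at 8C. The low median at MII and the high one at 4C follow from how these entries were chosen.

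For 383 tested entries, every GV and MII library lay on one side of every MI, PN, 2C and 4C library. Of these, 174 were called lower and 86 higher at 4C, a share that follows in part from the definition, since it keeps MII and 4C libraries apart. Among the genes named above they included HMGB3, ACTA2, MRPL30, NDUFB1, UQCRB, RPL23, RPS18, PSMA7 and H1-8 on the lower side and RPS29, RPL19, RPS3A, SYCP3, ZNF138, NLRP8 and BMP15 on the higher side. SYCP3 at 0.024 RPKM at GV, 32.4 at MI and 0.264 at MII, and BMP15 at 75.4, 246 and 42.8, are examples. What separates these libraries was not tested.

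**Figure D5:**
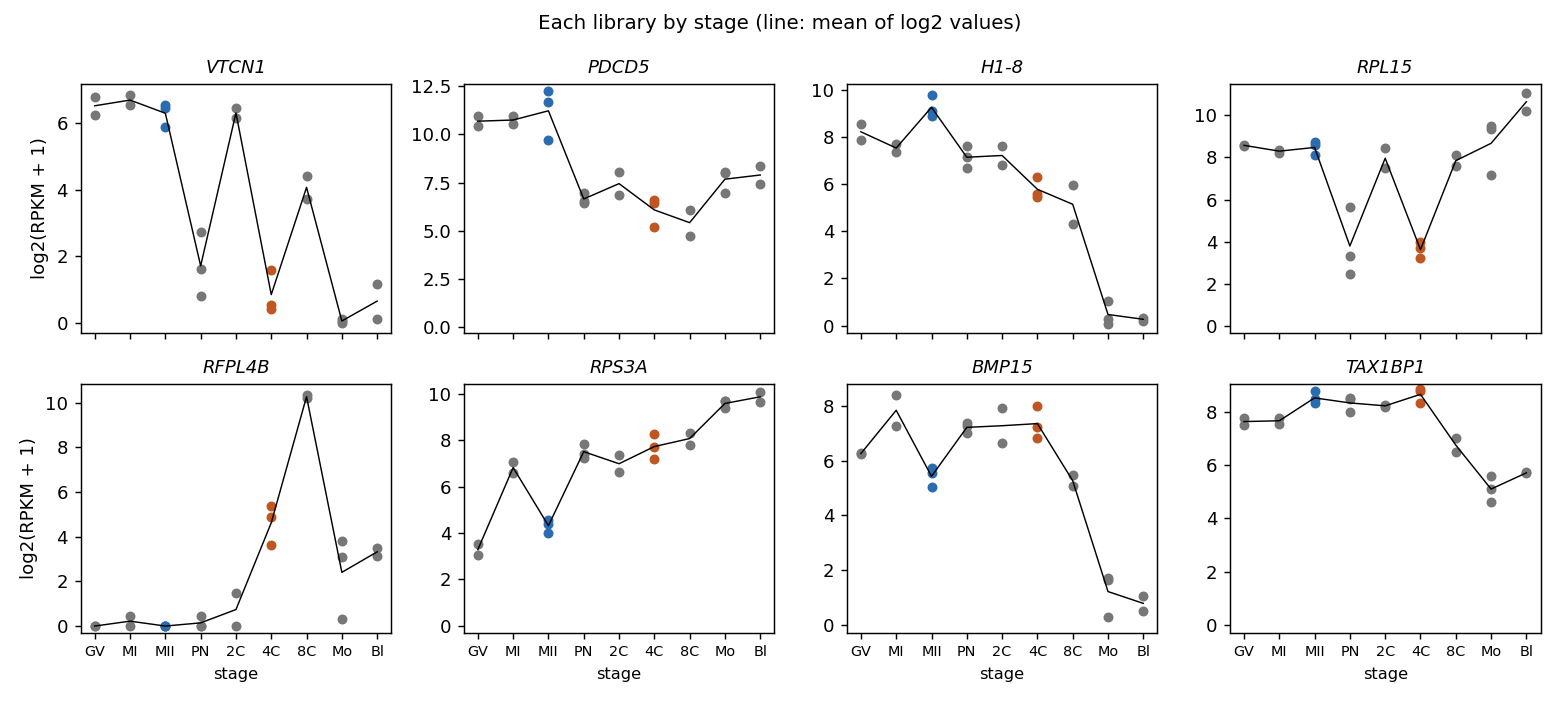
Level of 8 genes in each library at the 9 stages from GV to Bl, as log2(RPKM + 1), with a line through the stage means of the log2 values; blue points are MII and orange points 4C. PDCD5 was already lower at PN, VTCN1 and RPL15 were low at PN and 4C but not at 2C, RPS3A and BMP15 were low at GV and MII but not at MI, RFPL4B peaked at 8C, and TAX1BP1 stayed level from MII to 4C.

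Retention was judged from the 95% interval of the log2 change, which had to lie between -1 and 1. Of 8518 entries with a mean of at least 1 RPKM at MII, 357 (4.19%) met it, so for most entries without a call the data could not show a kept level. Among the 5 most abundant with a symbol were DPPA3, RPL5, TAX1BP1 and RTRAF. DPPA3 stood at 10390, 9611 and 10420 RPKM at MII and 10500, 9216 and 11760 at 4C (log2 change 0.04, 95% interval -0.88 to 0.97). The DPPA3 mean then stood at 4017 RPKM at 8C.

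The other 3 had narrower or similar intervals. RPL5, of the large ribosomal subunit, was at 363, 447 and 370 RPKM at MII and 308, 416 and 356 at 4C (interval -0.80 to 0.54). TAX1BP1, an autophagy receptor, was at 318, 441 and 352 RPKM at MII and 325, 437 and 459 at 4C (interval -0.57 to 0.84). RTRAF, an RNA-binding protein of the tRNA ligase complex, was at 427, 297 and 322 RPKM and 275, 344 and 389 (interval -0.88 to 0.78). All 4 had overlapping MII and 4C libraries. The number of retained entries depended on the spread estimate, with 128 to 156 when any 1 MII or 4C library was left out, 48 with a pseudocount of 0.1 RPKM and 687 without Mo-2. With scaled values it was 460. The scaled log2 changes were 0.32 for DPPA3, 0.15 for RPL5, 0.41 for TAX1BP1 and 0.23 for RTRAF, and their scaled intervals are not given here.

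Few entries met the limits set for a loss or gain of detection. Between 8048 and 8566 entries reached 1 RPKM in an MII library and between 8098 and 8578 in a 4C library. At MII but not 4C, 42 entries had at least 1 RPKM in all 3 oocytes and under 0.1 RPKM in all 3 embryos, and 35 of them were also called. The reverse held for 58 entries, of which 49 were called, although the estimated depth was lower for the 4C libraries. STC1, the secreted hormone stanniocalcin-1, went from 16.3, 4.90 and 8.76 RPKM to 0, 0.030 and 0 (limma adjusted p = 8.88e-06), with a mean of 0.0097 already at PN. PLA2G1B, a secreted phospholipase, went from 4.12, 5.15 and 3.19 RPKM to 0 in all 3 embryos (limma adjusted p = 9.92e-05). Of the 42 entries detected at MII and not 4C, 13 had a mean of at least 1 RPKM at 2C and 14 at 8C. Of the 58 entries detected at 4C and not MII, 25 had a mean of at least 1 RPKM at MI and 25 had a higher mean at 8C than at 4C. STC1 and PLA2G1B were chosen from the 42 after their values were seen. The counts were 64 to 89 and 74 to 106 when 1 of the 6 libraries was left out.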

How the data were processed

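Rhesus oocytes and embryos were profiled singly by RNA-seq from whole lysates with a SMARTer low-input and a TruSeq DNA kit, per the labels' protocols. The authors' deposited file gives RPKM for 35468 entries (28595 with ENSMMUG and 6873 with IMMRNTR identifiers), names and coordinates. The build is Mmul 8.0.1, per the submitters' processing notes; aligner, counter and annotation are not given in the sources used here. IMMRNTR entries carry names from the table that could not be checked.

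Entries reaching 1 RPKM in 2 or more of 22 libraries were tested on log2(RPKM + 1) using limma 3.58.1 in R 4.3.3. The model held the 9 stage means and all libraries (residual df 13), trended and robust variance, the 4C minus MII contrast, 2-sided p and Benjamini-Hochberg adjustment over 14312 entries, threshold 0.05. The script was tested on simulated data. Depth came from entries under 200 bases, with each library's total chosen to bring many of their low values near whole reads. At the chosen totals 91.5% of 496 values were within 0.05 of a whole read, and 14 of 20 for MII-2. This share was what the choice sought, so it does not check the depths. No count test was run, since the other entries' lengths are not in the table.

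Members, 24 gene lists and tests were chosen with earlier results of these data known. Named were the 12 largest called decreases and increases (an ENSMMUG identifier and a symbol, no overlap, 10 RPKM or more), the 5 most abundant retained entries (1 is not reported here), 14 decay genes, and from each list the called members by smallest p, up to 3 each way, some given by name only. OOEP, TLE6, DUXA, TNFAIP6 and HAS2 were chosen after their values were seen. List members with several entries use the one with the highest mean over all libraries. Alternatives were another pseudocount, filters, scaling, a fit of the 6 libraries, replicate blocks and leaving out single libraries.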

Additional observations from a re-analysis of the deposited data

How the results depend on the processing

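Counts of lower and higher calls at 4C were 871 and 445. They were 490 and 511 with median-of-ratios scaling and 448 to 718 and 255 to 443 without any 1 of the 6 libraries, and 1300 and 651 without Mo-2 (chosen after seeing the data). Calls within the 20 gene lists were 70 lower and 26 higher, with 37 lower after scaling, 109 lower in a fit of the 6 libraries, 126 lower and 46 higher without Mo-2, and 31 to 61 lower and 13 to 24 higher without any 1 library. The 357 retained entries became 48 with a pseudocount of 0.1, 220 with a filter of 5 RPKM, 1195 in a fit of the 6 libraries, 687 without Mo-2, 128 to 156 without any 1 library, 0 with an interval within -0.5 to 0.5 and 114 with a mean of at least 10 RPKM at MII, a minimum added after seeing the data. Detection at 5 RPKM against under 0.5 RPKM gave 10 entries for MII only and 23 for 4C only, and leaving out 1 library gave 64 to 89 and 74 to 106.

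Libraries that share a replicate number deviated from their stage means with correlations of -0.029, 0.0074 and 0.059. These values are near 0 but cannot exclude a shared donor, and the labels do not say whether replicate numbers pair the samples. With the replicate block in the 6 libraries, which leaves 2 residual degrees of freedom, limma called 0 lower and 0 higher entries and 0 list members in either direction, against 3461 entries at an unadjusted p under 0.05, and 1030 entries met the retention rule. With the block over all 22 libraries 802 were lower and 422 higher.

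Of 88 called genes named in the text or taken by the naming rule, 43 lost the call without some MII or 4C library. Among the named genes, direction changed only for genes that were not called. Under scaling the log2 change was 0.15 for RPL5, 0.23 for RTRAF, 0.015 for PABPN1L and 0.11 for DCP1A. Without 1 library it ranged from -0.043 to 0.13 for DPPA3 (below 0 without 4C-3), from -0.16 to 0.11 for RTRAF (0.11 without MII-1 and 0.087 without 4C-1) and from -0.29 to 0.21 for PABPN1L (0.17 without MII-3 and 0.21 without 4C-1). The lower estimated depth at 4C limits what absence there can show.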
